A study of Mus musculus with 56 samples.

Results

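Livers taken at zeitgeber time 4 (ZT4, 4 h after lights on) were compared between mice fed only by day and mice fed only by night. The comparison rests on 8 of the 56 liver libraries of the series, 4 livers from daytime-restricted feeding (DRF) and 4 from nighttime-restricted feeding (NRF), chosen by the regimen and time in the sample labels. All animals of both groups were female C57BL/6J mice aged 9 weeks, held under 12 h of light per day, that had spent 7 days on their regimen after ad libitum feeding with normal chow. The labels name no transgene or drug for either group, and NRF was the reference regimen. ZT4 fell inside the food window of DRF, whereas the NRF animals had passed into the fasting part of their day. Each library came from a separate animal killed once, so no animal was followed over time.

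Expression is given in scaled counts. This unit was obtained by undoing the log compression of the authors' values, and it serves to compare libraries for 1 gene, not genes with each other, as it carries no correction for length. In total the 8 libraries held between 368630000 and 539420000 recovered counts. Log2 differences below are DRF minus NRF on log2(scaled count + 1), with the standard error (SE) from limma and p-values adjusted by Benjamini-Hochberg over 25203 genes. A gene was called at an adjusted p under 0.05, and it is said to rise or fall when DRF was higher or lower than NRF at ZT4. Where 4 values are listed, they follow the order of replicates 1 to 4. Since livers were sequenced in bulk, more cells of a type and more RNA per cell cannot be told apart.

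The liver clock is a loop in which the BMAL1 (Arntl) and CLOCK or NPAS2 proteins drive Per, Cry, Nr1d1 and Dbp family genes through E-box sequences, and the PER, CRY and REV-ERB (Nr1d1, Nr1d2) proteins repress that drive. The time of feeding is known to set this loop in liver. A meal also raises insulin, which favours glucose uptake, glycogen and fat synthesis and silences FOXO1 targets such as Igfbp1, while fasting favours gluconeogenesis and fatty acid oxidation. At the same hour of the light phase the 2 groups of the comparison stood on opposite sides of that cycle.

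Of 25203 genes tested, 5156 were called at ZT4 (20.5%, with 30.9% under an unadjusted p of 0.05), of which 2733 rose (10.8%) and 2423 fell (9.61%). The median log2 difference was 0.42 among the genes that rose, -0.40 among those that fell and -0.0032 over all genes. A difference of more than 2-fold in group means was seen for 1289 called genes, 484 higher and 805 lower in DRF. In 4184 genes (16.6%) the call came with 4 DRF libraries all above or all below the 4 NRF libraries. Protein-coding genes were called most often, with 2358 up and 1703 down among 15056 tested (27% called). Counts for lncRNA genes tended downward, with 145 up and 342 down among 3491 (14% called). Genes higher in DRF made up 53.0% of the calls, and 43.3% of them once a trend with exon length was removed from each library, so the balance between the directions depended on that correction.

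**Figure D1:**
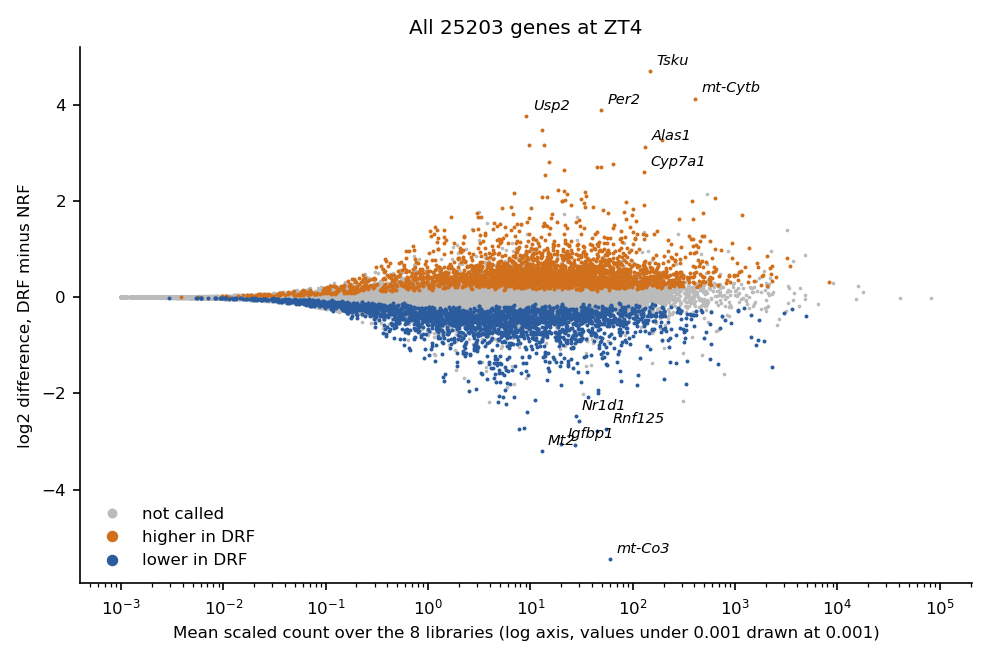
Log2 difference between DRF and NRF at ZT4 (y axis) against the mean scaled count over the 8 libraries (x axis, log scale) for each of 25203 genes, coloured where the adjusted p was under 0.05. Genes called in either direction lie on both sides of 0 at all but the lowest levels, and Tsku has the highest and mt-Co3 the lowest value.

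Most clock genes differed between the regimens. Of 19 core clock genes, 11 rose and 5 fell (84.2% called, against 27% of protein-coding genes), with a median log2 difference of 0.76. Per2, a repressor in the loop on chromosome 1 of GRCm38 (91415982 to 91459324, minus strand), had 99.05, 84.7, 91.2 and 94.2 scaled counts in DRF and 9.28, 4.999, 4.25 and 3.88 in NRF. Every DRF library lay above every NRF library, and DRF exceeded NRF by 3.88 on the log2 scale (SE 0.26, limma adjusted p = 4.27e-15). Per3 had 22.1, 25.95, 26.1 and 26.96 scaled counts in DRF and 2.27, 2.09, 1.23 and 2.22 in NRF, a log2 difference of 3.17 (SE 0.197, limma adjusted p = 5.67e-16). Per1 stood at 5.56 ± 0.849 in DRF and 1.06 ± 0.239 in NRF (SD, n = 4), a ratio of means of 5.26. The groups did not overlap for any of the 3 Per genes. Dbp, Tef and Hlf, the PAR bZIP factors that act on D-box sequences, rose with log2 differences of 2.17, 2.11 and 1.24 (limma adjusted p = 1.65e-10, 3.98e-12 and 2.34e-06). Cry1 and Cry2, the partners of the PER proteins, rose by 1.44 and 0.57 on the log2 scale. Bhlhe40 and Ciart, which repress BMAL1-driven genes, rose by 1.92 and 0.76 on the same scale. Ciart lay under 1 scaled count in all 8 livers, at 0.747 ± 0.133 in DRF and 0.0325 ± 0.015 in NRF (SD, n = 4). At that level the 1 added to each count shrinks the log2 difference. Its ratio of means was 23.0, without overlap of the groups.

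The 5 clock genes that fell included the activators of the E-box limb and Nr1d1. Arntl had 15.3, 12.998, 19.96 and 22.8 scaled counts in DRF and 66.5, 56.96, 50.1 and 42.04 in NRF, a log2 difference of -1.56 (SE 0.19, limma adjusted p = 1.99e-08). Npas2 stood at 0.443, 0.434, 0.297 and 0.456 in DRF and 5.91, 5.698, 3.23 and 3.57 in NRF, -1.96 on the log2 scale (limma adjusted p = 4.97e-12). The DRF livers were all far below the NRF livers, and replicate 3 was the lowest of the 8. Clock fell by 0.796 on the log2 scale, though its groups overlapped, and Rora fell by 0.34. Nr1d1, which represses Arntl and is itself an E-box target, had 7.63, 10.98, 6.18 and 6.81 scaled counts in DRF and 54.2, 54.6, 42.9 and 39.2 in NRF (log2 difference -2.47, limma adjusted p = 5.53e-08). Nr1d1 overlaps Thra on the opposite strand, and the use of strand in counting is not given in the sources used here. Its paralogue Nr1d2 had a log2 difference of 0.03 (limma adjusted p = 0.941) with overlapping groups, Nfil3 one of -0.36 (adjusted p = 0.122) and Bhlhe41 one of -0.01 (adjusted p = 0.981), so these were not called.

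Some promoter windows of the clock genes hold elements through which the loop is known to act, and stretches from 5 of the genes that rose are shown for that reason. RefSeq promoter windows (GRCm38.p6, from 250 bases before to 50 after a start site) were found for 67 of the 89 named genes and searched on both strands. The E-box CACGTG was in the window of 5 of 16 clock genes, of which 4 rose, against 8.09% of all genes with a window, and the D-box TTATGNAA in that of 2 of 16, both of which rose, against 3.99%. The RORE TAGGTCA, bound by the ROR and REV-ERB proteins, was in 2 of 16 (Arntl, which fell, and Nfil3, not called), against 2.97%. The clock genes were all tested, whereas the latter shares cover 27025 genes with a window, tested or not. Of 13026 tested genes with a window, 1392 held the E-box, 377 the D-box and 345 the RORE. Each stretch below is given from 5′ to 3′ on the strand of its gene, with the matching bases in capitals.
Per1, chr11:69098768-69098803, plus strand: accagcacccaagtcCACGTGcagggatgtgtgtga
Cry1, chr10:85185094-85185129, minus strand: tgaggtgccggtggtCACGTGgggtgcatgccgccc
Tef, chr15:81802531-81802566, plus strand: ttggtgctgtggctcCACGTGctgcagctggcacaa
Ciart, chr3:95882324-95882359, minus strand: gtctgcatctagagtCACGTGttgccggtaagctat
Per1, chr11:69098910-69098947, plus strand: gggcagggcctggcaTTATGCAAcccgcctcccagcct
Per3, chr4:151044848-151044885, minus strand: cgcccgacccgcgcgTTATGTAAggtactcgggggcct
Per3, chr4:151044801-151044838, minus strand: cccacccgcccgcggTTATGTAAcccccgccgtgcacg
Over the whole table, 19.2% of the tested genes with an E-box in the window rose, beside 15% of all tested genes with a window. Of those with a D-box 17% rose, and of those with a RORE 14.2%. The shares that fell were 11.6% with an E-box, 12.2% with a D-box and 12.8% with a RORE, beside 11.5% of all. A match is a string of letters and not a measured binding site.

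**Figure D2:**
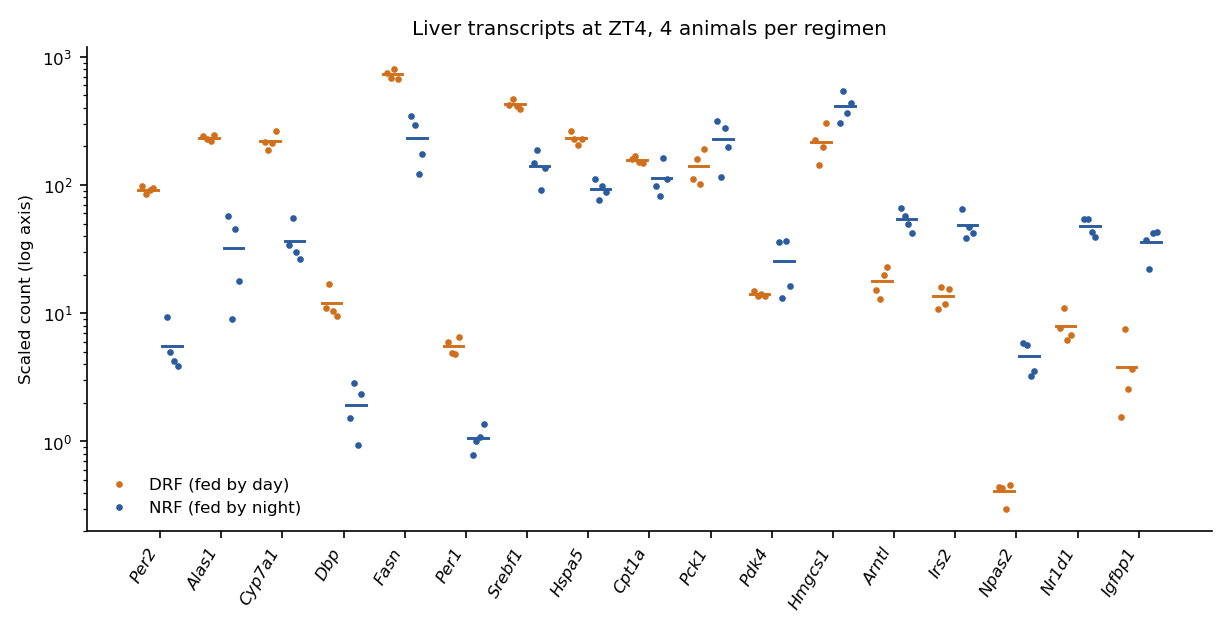
Scaled counts (y axis, log scale) of 17 genes in the 8 livers at ZT4, with DRF in orange and NRF in blue, 1 point per animal and a bar at the mean of 4. Genes run from the highest to the lowest log2 difference, so that Per2 stands at 84.7 to 99.05 in DRF against 3.88 to 9.28 in NRF on the left and Igfbp1 at 1.55 to 7.49 against 21.99 to 43.4 on the right.

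Several known outputs of the clock were among the genes with the widest differences. The 10 genes with the highest log2 differences among called, non-overlapping genes with a mean of at least 5 scaled counts were Tsku, Per2, Usp2, Noct, Thrsp, Hspa1b, Per3, Alas1, Wee1 and Rcan1. Tsku, which encodes a secreted protein made by liver, had 276, 266, 272 and 313 scaled counts in DRF and 40.9, 4.39, 10.5 and 4.39 in NRF (log2 difference 4.69, SE 0.44, limma adjusted p = 5.71e-11). The spread among the NRF livers was wide, with replicate 1 well above the other three, yet still far under the lowest DRF liver. Usp2, a deubiquitinase, had 20.2, 15.8, 16.1 and 19.5 in DRF and 0.642, 0.173, 0.62 and 0.19 in NRF (log2 difference 3.76, limma adjusted p = 7.13e-15). Noct (nocturnin) had 30.8, 10.8, 28.1 and 29.1 in DRF and 1.56, 0.691, 0.977 and 1.46 in NRF, where replicate 2 of DRF was lower than the other DRF livers (log2 difference 3.48, limma adjusted p = 3.18e-06). Wee1, a kinase that holds back entry into mitosis, was tight in both groups at 27.1 ± 0.582 against 3.02 ± 0.502 scaled counts (SD, n = 4; log2 difference 2.81, limma adjusted p = 1.48e-17). Rcan1, a regulator of calcineurin, stood at 112 ± 11.2 against 15.6 ± 2.06 (log2 difference 2.78, limma adjusted p = 1.64e-11).

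Many genes for glucose uptake and storage were higher in the DRF livers. Of 14 genes for glucose uptake and glycolysis, 9 rose and 1 fell (median log2 difference 0.56, with 71.4% called against 27% of protein-coding genes). Pklr, the liver pyruvate kinase, had 98.1, 81.7, 83.2 and 93.6 scaled counts in DRF and 56.9, 53.5, 33.4 and 41.4 in NRF (log2 difference 0.96, SE 0.26, limma adjusted p = 0.00539). Slc2a2, the glucose transporter GLUT2, rose by 0.63 on the log2 scale (limma adjusted p = 0.000292). Pfkfb3 had a log2 difference of 0.75 (limma adjusted p = 0.0331), a call that was lost when DRF replicate 1 or 2 or NRF replicate 1, 2 or 4 was left out. The 1 gene of the list that fell was Mlxipl, which encodes the glucose-responsive factor ChREBP, at 64.7 ± 2.46 against 111 ± 32.2 scaled counts (log2 difference -0.73). Of 10 glycogen genes 5 rose and 0 fell (50% called). Gys2, liver glycogen synthase, stood at 541, 562, 608 and 469 in DRF and 222, 241, 234 and 241 in NRF (log2 difference 1.21, limma adjusted p = 6.12e-11). Ppp1r3b, which brings protein phosphatase 1 to glycogen, had 132, 126, 136 and 126 in DRF and 55.2, 36.7, 48.6 and 29.7 in NRF (log2 difference 1.63, limma adjusted p = 1.15e-06). Pygl, the phosphorylase that breaks glycogen down, had a log2 difference of 0.05 and overlapping groups (limma adjusted p = 0.838).

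Several genes of fat synthesis were higher in DRF. Of 13 lipogenesis genes tested, 6 rose and 1 fell (median log2 difference 0.68, with 53.8% called against 27% of protein-coding genes). Thrsp, which promotes lipogenesis, had 405, 291, 317 and 359 scaled counts in DRF and 60.97, 71.8, 11.9 and 25.6 in NRF (log2 difference 3.27, SE 0.46, limma adjusted p = 5.03e-07). Fasn, fatty acid synthase, had 748, 687, 804 and 675 in DRF and 344, 293, 122 and 173 in NRF (log2 difference 1.75, limma adjusted p = 0.000465). Srebf1, which encodes the insulin-responsive factor SREBP1, had 425, 470.0, 412 and 394 in DRF and 148, 189, 90.8 and 136 in NRF (log2 difference 1.63, limma adjusted p = 3.9e-08). In each of these genes NRF replicate 3 was the lowest of the 8 livers and no groups overlapped. Elovl6, which lengthens palmitate, rose by 1.98 on the log2 scale, Acaca by 0.79 and Acly by 0.75, while Elovl5, an elongase of polyunsaturated fatty acids, fell by 0.74. Cholesterol genes did not move as a block, with 3 up, 2 down and 20 not called of 25. The share called was 20%, against 20.5% of all genes and 27% of protein-coding genes. Hmgcs1, an early enzyme of cholesterol synthesis, fell by 0.94 on the log2 scale (limma adjusted p = 0.00658; adjusted p = 0.0529 in a fit on the 8 livers alone). Insig2, which restrains SREBP processing, fell by 0.998 (limma adjusted p = 0.000146).

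For genes of fatty acid oxidation and ketogenesis the result depended on which livers were used. Of 28 tested, 9 rose and 0 fell (median log2 difference 0.26). The share called was 32.1%, against 27% of protein-coding genes. With NRF replicate 3 left out 15 rose, with DRF replicate 4 or NRF replicate 1 left out 4 rose, with NRF replicate 2 left out 1 rose and 3 fell, and 2 rose in a fit on the 8 livers alone. NRF replicate 3 had the highest value of the 8 livers for Plin2 (597 scaled counts, against 177 to 365 in the other NRF livers), Ehhadh and Angptl4. Those genes were chosen after their values were seen. Cyp4a31 and Acaa1b stayed under every DRF liver (38.9 to 48.8 and 607 to 666), at 37.2 and 554 in NRF replicate 3. Cpt1a, which admits fatty acids to mitochondria, had 159, 167, 152 and 147 scaled counts in DRF and 98.9, 82.3, 162 and 112 in NRF, overlapping through that liver (log2 difference 0.499, limma adjusted p = 0.00581; adjusted p = 0.130 in a fit on the 8 livers alone and 0.0605 without NRF replicate 2). The called members whose groups did not overlap were Cyp4a31 (0.94 on the log2 scale), Acaa1b (0.53) and Acads (0.35), with limma adjusted p of 0.01, 0.0256 and 0.0125. The call of Acaa1b was lost without DRF replicate 4 or NRF replicate 1, 2 or 4, that of Acads without DRF replicate 4 or NRF replicate 1, and that of Cyp4a31 without NRF replicate 2 and in a fit on the 8 livers alone. Cyp4a31 belongs to a family of close copies between which counting may have split reads. Pdk4, which shuts pyruvate out of oxidation, had 14.9, 13.6, 14.2 and 13.7 scaled counts in DRF and 35.7, 13.2, 36.4 and 16.4 in NRF (log2 difference -0.68, limma adjusted p = 0.146). It was called lower in DRF without NRF replicate 2 (adjusted p = 0.0485). Fgf21, the fasting hormone of liver, was under 1 scaled count in all 8 livers, with 0.0924, 0.0331, 0.563 and 0.203 in NRF and 0 to 0.126 in DRF. It was not called (log2 difference -0.21, limma adjusted p = 0.132). A call lower in DRF was gained with 0.1 in place of 1 added to each count and on the deposited values (adjusted p = 0.0397 and 0.0224). The same held with the exon-length trend removed and without NRF replicate 2 (adjusted p = 0.0365 and 0.0445).

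Several genes that insulin is known to silence were low in DRF. Igfbp1, an insulin-repressed binding protein for insulin-like growth factors on chromosome 11 of GRCm38 (7197782 to 7202546, plus strand), had 1.55, 7.49, 2.56 and 3.67 scaled counts in DRF and 37.4, 21.99, 42.2 and 43.4 in NRF (log2 difference -3.05, SE 0.62, limma adjusted p = 0.000214). Irs2, the insulin receptor substrate that rises in fasting, had 10.7, 16.04, 11.8 and 15.6 in DRF and 65.5, 38.6, 47.5 and 42.7 in NRF (log2 difference -1.76, limma adjusted p = 5.84e-06). Depp1, a FOXO target outside the list of insulin and FOXO signalling genes, stood at 3.86, 10.2, 4.16 and 3.403 in DRF and 45.6, 58.6, 59.8 and 34.95 in NRF (log2 difference -3.06, limma adjusted p = 4.11e-06), where replicate 2 of DRF was above the other three. The receptor gene Insr fell by 0.37 on the log2 scale, and the sestrin genes Sesn1 and Sesn3 by 0.53 and 0.49. In that list of 15, 5 fell and 6 rose (73.3% called, against 27% of protein-coding genes). Pik3r1, the regulatory subunit of PI3 kinase, rose by 1.29, Foxo3 by 0.68 and Irs1 by 0.55 (limma adjusted p = 5.85e-09, 1.93e-06 and 0.000855). Autophagy genes had 7 down and 2 up of 19 (47.4% called), and 4 down on the deposited values. Their median log2 difference was 0.05, opposite in sign to the larger count. Ulk1, the kinase that starts autophagy, had 29.5, 36.8, 27.8 and 30.2 scaled counts in DRF and 53.5, 44.8, 56.9 and 66.5 in NRF (log2 difference -0.81, limma adjusted p = 6.79e-06), Pik3c3, the lipid kinase VPS34, fell by 0.84 and Wipi1 by 0.54.

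Gluconeogenic genes were not lower in DRF as a group. Of 11, 3 rose, 0 fell and 8 were not called (27.3% called, against 27% of protein-coding genes). Pck1, the PEPCK enzyme, had 111, 160.3, 102 and 189.7 scaled counts in DRF and 317, 115, 280.2 and 199 in NRF, with overlapping groups (log2 difference -0.64, SE 0.36, limma adjusted p = 0.228). G6pc, glucose-6-phosphatase, had a log2 difference of 0.78 (limma adjusted p = 0.105), and Ppargc1a one of -0.03 (adjusted p = 0.928). The members that rose were Slc37a4, the glucose-6-phosphate carrier, by 1.05 on the log2 scale, Fbp1, fructose-1,6-bisphosphatase, by 0.49, and Sik1, a kinase that restrains CREB coactivators, by 1.74 (limma adjusted p = 0.000141, 0.000362 and 3.73e-07). With NRF replicate 3 left out, 5 of the 11 rose.

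Amino acid genes rose in part. Of 25 for amino acid breakdown and the urea cycle, 10 rose and 3 fell (52% called, against 27% of protein-coding genes). Only 6 rose in a fit on the 8 livers alone, and also with DRF replicate 4 or NRF replicate 4 left out. Gpt2, an alanine transaminase, had 728, 617, 665 and 687 scaled counts in DRF and 315, 369, 229 and 222 in NRF (log2 difference 1.28, limma adjusted p = 4.95e-08). Tat, tyrosine transaminase, had 692, 528, 581 and 713 in DRF and 309, 368, 231 and 222 in NRF (log2 difference 1.17, adjusted p = 0.000346). Asl, the urea cycle lyase, had 564, 515, 528 and 637 in DRF and 276, 319, 259 and 215 in NRF (log2 difference 1.08, adjusted p = 1.23e-06). The 3 that fell were Sds, serine dehydratase, Agxt and Hal, with log2 differences of -0.795, -0.72 and -0.44. In the integrated stress response list 2 of 14 rose and 3 fell (35.7% called, against 27% of protein-coding genes). Trib3 had 1.41, 1.33, 0.815 and 1.05 scaled counts in DRF and 5.395, 6.48, 4.09 and 5.897 in NRF (log2 difference -1.58, limma adjusted p = 1.34e-05). Chac1, which degrades glutathione, stood at 0.0515, 0.0528, 0.0438 and 0.0294 in DRF and 0.71, 1.13, 0.587 and 1.14 in NRF (log2 difference -0.84, adjusted p = 7.57e-06) and Atf5 at 52.9 ± 9.98 and 105 ± 37.2 (log2 difference -0.94, adjusted p = 0.000617). Trib3, Chac1 and Atf5 were lower in every DRF liver than in any NRF liver.

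**Figure D3:**
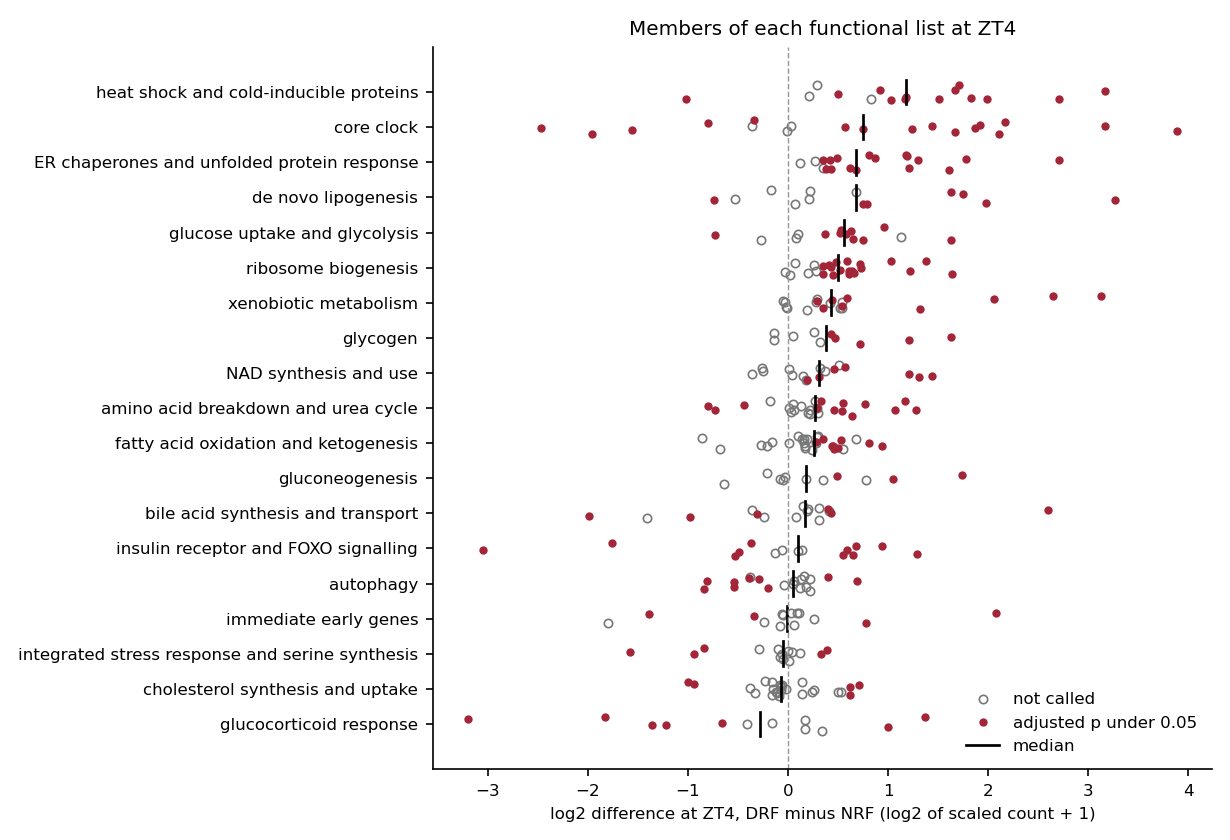
Log2 difference at ZT4 (x axis, DRF minus NRF) of each tested member of 19 functional lists (y axis), filled where the adjusted p was under 0.05, with a bar at the median of the list. The lists of heat shock proteins, clock genes and ER chaperones have the highest medians, at 1.18, 0.76 and 0.68, and the called members of the ER chaperone and ribosome biogenesis lists all lie above 0.

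Chaperones of the endoplasmic reticulum (ER), which fold secreted proteins, rose nearly throughout. Of 19 genes 16 rose and 0 fell (median log2 difference 0.68), and 14 to 17 rose under the alternatives tried. The share called was 84.2%, against 27% of protein-coding genes. Hspa5, the chaperone BiP, had 263, 229.8, 204 and 229 scaled counts in DRF and 111, 76.9, 99.01 and 88.1 in NRF (log2 difference 1.303, SE 0.24, limma adjusted p = 7.55e-05). Creld2 had 102, 75.6, 65.7 and 102 in DRF and 14.3, 8.78, 13.99 and 12.3 in NRF (log2 difference 2.71, adjusted p = 3.5e-08). Manf, a secreted ER stress protein, had 148, 116, 104 and 139 in DRF and 37.1, 34.9, 33.9 and 37.7 in NRF (log2 difference 1.78, adjusted p = 8.8e-08). Dnajb9, a cofactor of BiP, had 54.2, 47.7, 37.1 and 43.8 in DRF and 13.5, 12.6, 17.2 and 13.8 in NRF (log2 difference 1.61, adjusted p = 3.62e-07). The groups were separate for each of them. Xbp1, which encodes a factor of the unfolded protein response, rose by 0.38 on the log2 scale, Hsp90b1 by 0.62 and Syvn1, a ubiquitin ligase of ER-associated degradation, by 1.18 (limma adjusted p = 0.0065, 0.00148 and 0.000208). Calr, Canx and Pdia6 were not called, with log2 differences of 0.35, 0.12 and 0.27.

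Several of these genes share a promoter sequence. The ER stress element (CCAAT and CCACG, parted by any 9 bases), searched on both strands, was in the promoter window of 8 of 17 ER chaperone genes with a window and of 37 of 27025 genes in all (0.137%). Of the 8, 5 rose and the other three were Calr, Canx and Pdia6. The 5 that rose are shown to let the element be compared, again from 5′ to 3′ on the strand of the gene, with the matching bases in capitals. In Creld2 and in the second stretch of Hsp90b1 the match is to the opposite strand.
Hspa5, chr2:34772010-34772058, plus strand: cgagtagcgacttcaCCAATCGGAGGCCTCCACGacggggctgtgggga
Creld2, chr15:88819505-88819553, plus strand: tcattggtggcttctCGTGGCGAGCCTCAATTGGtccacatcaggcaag
Hsp90b1, chr10:86705623-86705671, minus strand: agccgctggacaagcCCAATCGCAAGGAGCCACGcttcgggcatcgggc
Hsp90b1, chr10:86705518-86705566, minus strand: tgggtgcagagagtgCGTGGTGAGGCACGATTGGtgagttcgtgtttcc
Dnajc3, chr14:118937812-118937860, plus strand: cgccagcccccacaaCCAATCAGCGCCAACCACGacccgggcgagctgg
Syvn1, chr19:6046517-6046565, plus strand: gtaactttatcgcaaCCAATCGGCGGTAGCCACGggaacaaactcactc
Among all 23 tested genes that hold the element, 7 rose (30.4%) and 1 fell. Of all tested genes with a window 15% rose. The set of 23 contains the 8 list members, which gave 5 of the 7 that rose, so its share rests largely on the list. Dnajb9 has a window without these letters, which says nothing of what binds there.

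Cytosolic and mitochondrial heat shock genes rose as well. Of 16 genes in the list of heat shock and cold-inducible proteins, 12 rose and 1 fell (median log2 difference 1.18), with 11 to 13 up under the alternatives tried. The share called was 81.2%, against 27% of protein-coding genes. Hspa1b, an inducible HSP70, had 24.8, 13.6, 13.2 and 21.01 scaled counts in DRF and 1.102, 0.53, 1.697 and 1.04 in NRF (log2 difference 3.17, SE 0.38, limma adjusted p = 2.08e-08). Hspa1a, at 4.34, 2.23, 2.19 and 3.498 in DRF and 0.261, 0.15, 0.381 and 0.217 in NRF, is a near-identical copy, so the share of each is uncertain. Hsph1, an HSP110, had 72.7, 67.5, 70.3 and 96.2 in DRF and 18.9, 6.48, 15.3 and 6.85 in NRF (log2 difference 2.71, adjusted p = 7.88e-09). Hspa8, the constitutive HSC70, had 584, 544, 564 and 724 in DRF and 152, 124, 201 and 134 in NRF (log2 difference 1.99, adjusted p = 1.08e-08). The gene that fell was Cirbp, a cold-inducible RNA-binding protein, with 1.17, 1.504, 1.12 and 0.704 scaled counts in DRF and 2.31, 3.81, 2.64 and 4.74 in NRF (log2 difference -1.02, limma adjusted p = 7.67e-05). Its relative Rbm3 was not called (log2 difference 0.21, adjusted p = 0.334). The heat shock element is GAA, TTC and GAA in a row, each parted from the next by any 2 bases. It was in the window of 3 of 11 genes of the list with one, against 0.662% of all genes with a window, tested or not. Hspd1 and Hspe1, a gene pair read in opposite directions from 1 promoter, account for 2 of the 3. Hspd1 rose, while Hspe1 had a log2 difference of 0.83 and was not called (limma adjusted p = 0.442).

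Ribosome biogenesis rose by smaller steps. Of 24 genes 18 rose and 0 fell (median log2 difference 0.50, with 75% called against 27% of protein-coding genes). Rrp12 had 24.7, 24.5, 24.1 and 25.2 scaled counts in DRF and 8.97, 6.68, 7.51 and 6.11 in NRF (log2 difference 1.64, limma adjusted p = 0.0022; adjusted p = 0.0719 on the deposited values). Nolc1, a nucleolar chaperone, had 12.1, 11.1, 11.7 and 11.1 in DRF and 4.61, 2.59, 5.49 and 3.05 in NRF (log2 difference 1.38, adjusted p = 8.11e-08). Bysl had 15.4, 14.7, 16.04 and 15.5 in DRF and 6.54, 5.36, 7.28 and 5.08 in NRF (log2 difference 1.22, adjusted p = 1.81e-08). Polr1a and Polr1b, the large subunits of RNA polymerase I, rose by 0.62 and 0.66 on the log2 scale. Their DRF livers lay within a narrow band, at 40.5, 40.98, 39.3 and 41.5 scaled counts for Polr1a against 33.5, 22.5, 28.5 and 21.6 in NRF. Ncl, Npm1 and Myc were not called.

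Bile acid and detoxification genes were led by a few enzymes. Cyp7a1, the rate-limiting enzyme of bile acid synthesis, had 216, 188, 211 and 262 scaled counts in DRF and 34.2, 55.2, 29.8 and 26.7 in NRF (log2 difference 2.601, SE 0.38, limma adjusted p = 1.02e-06). Abcb11, the bile salt export pump, went the opposite way with 347, 388, 379.7 and 442 in DRF and 863, 876, 698 and 649 in NRF (log2 difference -0.98, adjusted p = 2.52e-10), as did Hsd3b7 (log2 difference -1.99, adjusted p = 2.12e-07; adjusted p = 0.0526 in a fit on the 8 livers alone). In all 3 of 16 bile acid genes rose and 3 fell (37.5% called, against 27% of protein-coding genes). Of 20 genes of xenobiotic metabolism 9 rose and 0 fell (median log2 difference 0.43, with 45% called against the same 27%). Alas1, the first enzyme of haem synthesis, had 241, 228, 219.7 and 247 scaled counts in DRF and 57.1, 9.09, 45.6 and 17.97 in NRF (log2 difference 3.13, limma adjusted p = 1.21e-08). Por, which feeds electrons to cytochromes P450, rose by 1.32 on the log2 scale. Cyp2a5 had 1042, 1043, 1049 and 918 in DRF and 326, 462, 139 and 164 in NRF (log2 difference 2.06, adjusted p = 5.99e-08). Cyp2a5 was at even levels in DRF replicates 1 to 3, with replicate 4 lower. Of 17 genes for NAD synthesis and use 7 rose and 0 fell (41.2% called, against 27% of protein-coding genes). Nampt, the rate-limiting enzyme of NAD salvage and an E-box target of the clock, had 47.5, 52.4, 47.8 and 49.5 in DRF and 18.6, 21.7, 14.6 and 15.9 in NRF (log2 difference 1.44, adjusted p = 3.38e-14). Nmrk1 rose by 1.31 on the log2 scale and Nnmt, which methylates nicotinamide, by 1.21.

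Known targets of glucocorticoids split. Of 12 tested 2 rose and 5 fell (58.3% called, against 27% of protein-coding genes). Only 3 fell when any of the 8 livers other than DRF replicate 4 and NRF replicate 2 was left out. Mt2, a metallothionein, had 1.06, 1.61, 1.69 and 2.24 scaled counts in DRF and 32.2, 14.5, 19.4 and 30.3 in NRF (log2 difference -3.196, SE 0.502, limma adjusted p = 4.1e-06). Its neighbour Mt1 had 4.34, 8.13, 7.69 and 13.3 in DRF and 21.3, 15.04, 19.2 and 23.3 in NRF (log2 difference -1.22, adjusted p = 0.0441). Zbtb16, a zinc finger factor, fell by 1.82 on the log2 scale and Klf9 by 1.35, whereas Tsc22d3, which encodes GILZ, rose at 257, 204, 248 and 294 against 116, 98.1, 95.1 and 76.5 (log2 difference 1.37, adjusted p = 1.66e-05). Fkbp5 was not called (log2 difference -0.405, adjusted p = 0.587). Among 14 immediate early genes Atf3 and Jun rose (2.08 and 0.78 on the log2 scale) and Junb and Klf6 fell (-1.39 and -0.34). The share called in that list was 28.6%, against 27% of protein-coding genes. The call of Jun was lost without NRF replicate 1 (adjusted p = 0.0679). Fos was under 1 scaled count in each of the 8 livers.

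The remaining genes at the low end belonged to no list. Besides Mt2, Depp1, Igfbp1 and Nr1d1, the 10 lowest were Ndrg1 (-2.78 on the log2 scale), the ubiquitin ligase gene Rnf125 (-2.75), Loxl4, a lysyl oxidase (-2.74), the lincRNA AC127342.1 (-2.73), Tcp11l2 (-2.57) and mt-Co3 (-5.44). Ndrg1 had 10.01, 9.62, 10.01 and 12.2 scaled counts in DRF and 71.1, 55.8, 103 and 87.8 in NRF, and Loxl4 had 0.822, 1.41, 1.45 and 1.43 in DRF and 14.6, 13.004, 13.6 and 15.2 in NRF, with DRF replicate 4 high for the first and replicate 1 low for the second. The value of mt-Co3, a mitochondrial subunit of cytochrome oxidase, came from NRF livers at 140.4, 199, 0.133 and 139 against 0.0679, 0.0409, 0.0559 and 0.0662 in DRF, so that NRF replicate 3 lay near DRF. The second highest log2 difference of all genes was that of mt-Cytb, from 736, 0.51, 506 and 0.217 scaled counts in NRF against 479, 508, 539.7 and 481 in DRF, with overlapping groups. In all, 4 of 12 mitochondrial protein-coding genes differed more than 100-fold among the 4 livers of a group while reaching 5 scaled counts, as did 44 of 9945 other genes. The call of mt-Co3 was lost in a fit on the 8 livers alone (adjusted p = 0.0643), and these mitochondrial values were read no further.

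The same contrast at ZT16, 4 h after lights off, when the NRF animals had food and the DRF animals had none, ran the opposite way for most genes called at both times. The 8 libraries at ZT16 are separate animals from those at ZT4. At ZT16 3835 genes (15.2%) were called, 1815 of which were called at ZT4 too. Of these 1815, 1684 had the opposite sign (6.68% of all genes) and 131 the same (0.52%). The change in the difference itself, tested as an interaction in limma, passed in 5490 genes (21.8%), 3719 of them among the ZT4 calls. The interaction contains the ZT4 difference, so a gene called at ZT4 can pass it without any difference at ZT16. Per2, at 12.1 ± 1.08 scaled counts in DRF and 96.3 ± 13.2 in NRF at ZT16 (SD, n = 4), had a log2 difference of -2.89 there. Tsku turned to -3.47, Alas1 to -2.74 and Depp1 to 3.15. All but 1 of the 20 genes picked as anchors (Fgf21) passed the interaction.

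**Figure D4:**
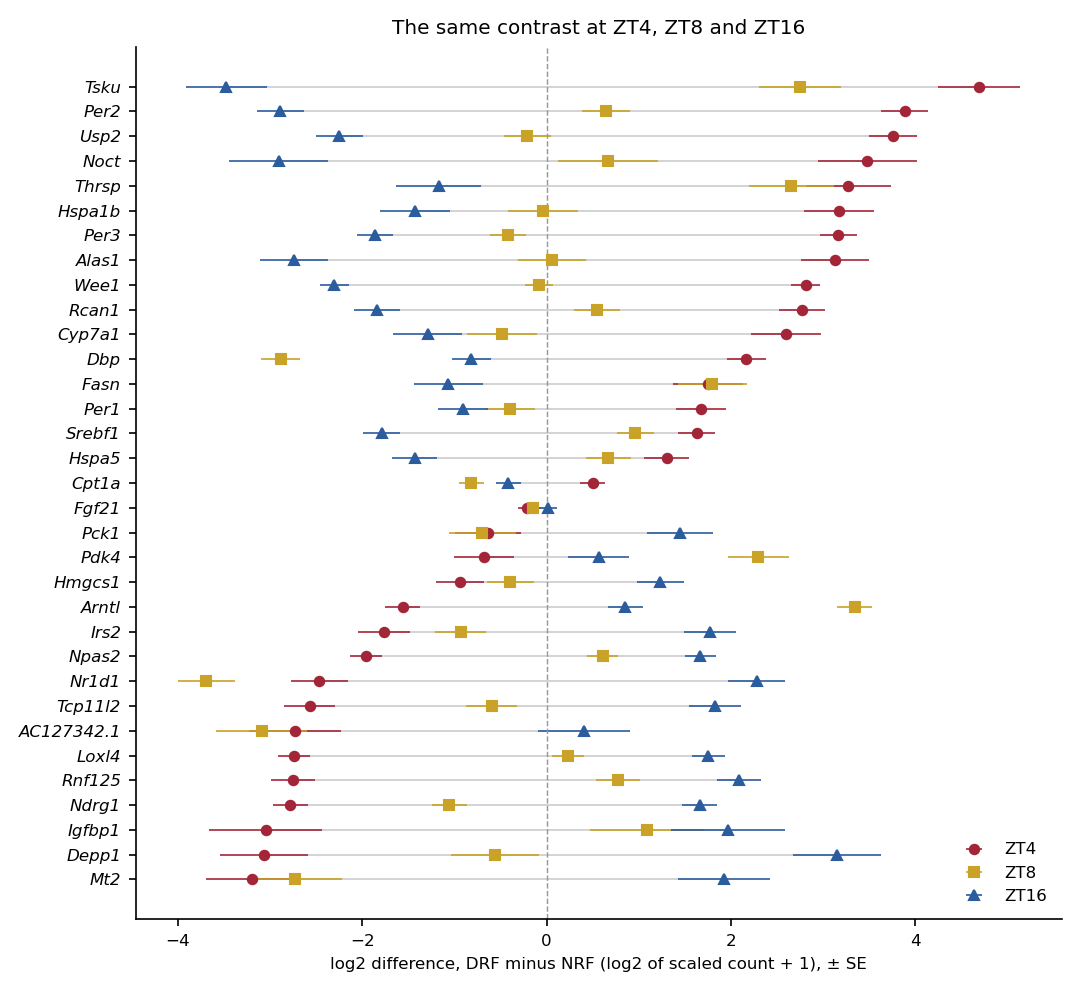
Log2 difference between DRF and NRF with its SE (x axis) at ZT4 (circles), ZT8 (squares) and ZT16 (triangles) for 33 genes ordered by the ZT4 value. The genes come from the anchors and the 10 highest and 10 lowest genes, without mt-Co3, which was negative at both ZT4 and ZT16 (-5.44 and -0.77). At ZT16 the difference has the opposite sign to that at ZT4 in all 33 genes (Fgf21 lying near 0). Of these, Fgf21, Pdk4, Thrsp and AC127342.1 were not called at ZT16 (limma adjusted p = 0.965, 0.2675, 0.0789 and 0.655). The ZT8 values fall on either side, with Arntl at 3.34 and Nr1d1 at -3.69.

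Members called with opposite signs and members passing the interaction were counted for each list, and passing alone does not show a reversal. Of 19 ER chaperone genes, 13 were called at both times with the opposite sign and 16 passed the interaction. Of 19 clock genes 14 had the opposite sign and 17 passed. For heat shock genes these counts were 10 and 14 of 16, and for ribosome biogenesis 9 and 19 of 24. Of 25 amino acid genes 17 were called higher in DRF at ZT16, 4 were called upward at both times, 3 had opposite signs and 10 passed the interaction. Glycolysis had 2 with the opposite and 2 with the same sign of 14, and 7 passed the interaction. Neither here nor at ZT8 were the lists compared by a test.

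A small set kept its direction at both times. With NRF ZT16 replicate 4 left out it counted 257 genes, and 69 with NRF ZT16 replicate 3 left out, so its size is uncertain. Among members with at least 5 scaled counts and separate groups at ZT4, the largest log2 differences upward were those of Gsta1 and Gm3776, near-identical glutathione transferase genes between which reads may be split, then Gpt2, Slc22a29 and Pls1. Gsta1 had 27.04, 27.8, 48.8 and 44.1 scaled counts in DRF and 9.41, 8.39, 1.15 and 4.57 in NRF at ZT4 (log2 difference 2.65, limma adjusted p = 0.0012), and 1.95 on the log2 scale at ZT16 (adjusted p = 0.0251). Slc22a29 stood at 1.11 and 1.204, and Pls1, a plastin that bundles actin, at 1.11 and 0.704. Downward the differences were small, from -0.27 for Ddx46, an RNA helicase, through Ddhd1 (-0.37), Tut7 (-0.39) and Smc6 (-0.42), to -0.45 for Fnbp4. The calls of Ddx46 and Fnbp4 at ZT4 were each lost when any of 5 and of 6 single livers was left out, respectively. The call of Slc22a29 was lost without DRF replicate 2 or NRF replicate 3 or 4, that of Ddhd1 without NRF replicate 3, in a fit on the 8 livers alone and on the deposited values, and those of Gm3776 and Tut7 on the deposited values.

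At ZT8, with DRF still in its food window, 3270 genes (13%) were called, and the difference at ZT4 was unlike that at ZT8 in 2100 genes (8.33%). Of the genes called at both times 1293 had the same sign (5.13% of all genes) and 177 the opposite (0.702%). The lipogenic genes Fasn and Thrsp kept their direction: Fasn had a log2 difference of 1.799 at ZT8 beside 1.75 at ZT4, and Thrsp 2.66 beside 3.27. Other metabolic genes changed between the 2 times. Cyp7a1 went from 2.601 to -0.48, Gys2 from 1.21 to -0.24, Slc2a2 from 0.63 to -0.51 and Cpt1a from 0.499 to -0.82 (interaction adjusted p = 9.01e-05, 1.27e-08, 2.96e-05 and 5.24e-06). At ZT8 Slc2a2 and Cpt1a were called lower in DRF (limma adjusted p = 0.00508 and 2.19e-05). Cyp7a1 and Gys2 were not called there (adjusted p = 0.517 and 0.18), so a reversal was not shown for them. Among clock genes and outputs, Dbp turned from 2.17 to -2.89 (interaction adjusted p = 1.51e-16) and Arntl from -1.56 to 3.34 (adjusted p = 8.18e-18), both called at ZT8. Per3 and Usp2 went from 3.17 and 3.76 to -0.42 and -0.21 (interaction adjusted p = 6.48e-13 and 7.51e-11). Neither was called at ZT8 (limma adjusted p = 0.179 and 0.737). The interaction test passed in 17 of 19 clock, 9 of 16 bile acid, 5 of 10 glycogen, 7 of 16 heat shock, 10 of 24 ribosome biogenesis, 6 of 19 ER chaperone, 3 of 14 glycolysis, 3 of 13 lipogenesis, 3 of 28 fatty acid oxidation and 1 of 25 amino acid genes. Igfbp1 went from -3.05 to 1.09 (interaction adjusted p = 0.00117) and was not called at ZT8 (limma adjusted p = 0.298). The ER chaperones kept a positive median, 0.53 at ZT8 beside 0.68 at ZT4.

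Markers of the cell types in liver were read beside these results. Hepatocyte markers such as Alb and Trf were high in all 8 livers, with 1 up (Hnf4a) and 1 down (Fgb, a fibrinogen chain) of 7. That share called, 28.6%, was close to the 27% of protein-coding genes. None of 8 Kupffer cell or 8 stellate cell markers was called by limma (at an unadjusted p under 0.05, 0 and 2 were). The summed level of the stellate cell markers ran from 689 to 753 scaled counts in DRF and 787 to 912 in NRF, without overlap (exact permutation p = 0.0286, adjusted 0.0858). Of 6 bile duct markers Sox9 fell (16.7% called), and of 8 lymphocyte and neutrophil markers Ms4a1 fell (12.5% called), both shares under 27%. Of 8 endothelial markers 37.5% were called. The endothelial markers Stab2, Kdr and Oit3 fell by 0.36, 0.28 and 0.34 on the log2 scale, and the summed level of 8 endothelial markers ran from 436 to 469 scaled counts in DRF and 512 to 559 in NRF, without overlap (exact permutation p = 0.0286, the smallest that 4 against 4 allows, and 0.0858 adjusted over 12 library measures). Haemoglobin genes were higher in DRF, with 920.5, 991, 447 and 759.7 scaled counts of Hba-a1 in DRF and 206, 320.4, 532 and 334 in NRF, and the sum over blood, fat and pancreas markers ran from 835 to 1763 against 423 to 829 (exact permutation p = 0.0286, adjusted 0.0858). Adipoq and 4 pancreatic enzyme genes of that list were not among the genes tested. The part of blood, endothelial or stellate cell RNA in the differences above was not tested.

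In the lists with 0 called downward, limma gave 0 gluconeogenesis, 0 glycogen, 3 fatty acid oxidation, 0 ER chaperone, 0 ribosome biogenesis, 0 xenobiotic and 1 NAD genes lower in DRF at an unadjusted p under 0.05.

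The livers of a group correlated at 0.9725 to 0.988 across 13690 genes and those of different groups at 0.963 to 0.970 (Pearson's r on the log2 scale, a description across genes). The number of genes above 0 was lower in every DRF liver, at 23605 to 24000 against 24022 to 24151. An index of how each library leaned with exon length ran from -0.251 to -0.150 in DRF and from -0.226 to 0.169 in NRF, with NRF replicate 1 the highest.

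Circular RNAs were counted by the authors from reads across back-splice junctions and gave few calls. Of 1131 tested by limma 2 were called (0.177%) and 77 (6.81%) had an unadjusted p under 0.05. Of these 1 was lower in DRF, at 0, 448, 0 and 0 deposited linear units in DRF and 390.0, 1042, 354 and 797 in NRF, and 1 was higher (0.0884%), at 1088, 896, 373 and 718 in DRF and 0, 195, 0 and 0 in NRF. A fit on the 8 livers alone gave 0 calls and leaving out a single library gave 0 to 4, so no circular RNA is named.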

How the data were processed

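By the protocol, liver RNA was depleted of ribosomal RNA and sequenced as strand-specific libraries from 56 mice, while the molecule field of the labels reads polyA RNA, a conflict that bears on lncRNA and circular RNA values. The 8 libraries at ZT4 are compared here. Per the submitters' processing notes, CASAVA 1.8 and featureCounts 1.5.0-p3 were used with mm10 and GRCm38.p6. The aligner and the strand setting in counting are not given in the sources used here. The authors deposited gene values named TPM, but in the deposited table value times exon length follows a natural log of 1 plus a multiple of whole counts, so each value is a log-compressed score. It was undone with exon lengths of GENCODE vM21, and 25203 of 25415 genes were rebuilt as scaled counts (212 could not be). Of values from 1000 to 20000 recovered counts 96.806% came out whole within 0.05 (10% by chance). In the ranges below 1000 the share ran from 95.639% to 98.975%. Recovered counts far exceed the reads per sample that the study states, so they are not reads and no counting interval is given. Gpt2, Tat, Abcb11, Acaa1b, Fbp1, Ugp2 and Cyp2a5 were too high for whole counts to be judged. Circular RNA values were deposited by the authors on a log2 scale after scaling between libraries, and 1131 of 2352 above 0 in at least 28 libraries were tested.

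Groups came from the sample labels, which give no batch. limma 3.58.1 (R 4.3.3) was fitted to log2(scaled count + 1) with 14 group means over all 56 libraries and a mean-variance trend, two-sided, with Benjamini-Hochberg adjustment. Single library measures were compared by exact permutation, also in R. On simulated data with 25203 genes, the fit of the ZT4 comparison recovered 87 of 100 genes changed by 1 and 98 of 100 changed by 2 on the log2 scale, with 12 false calls. The simulated noise was independent between genes, without trends shared across a library. Only genes with a mean of at least 1 scaled count were changed, and all others had no difference at ZT4. These counts are therefore not error rates of the real comparison. Same-numbered livers are different animals, and their deviations from the group means correlated at -0.1436 to 0.02844, so the numbers do not pair them. The members and gene lists were chosen with earlier results of these data known. Genes are named as 20 anchors, up to 3 of each list with the largest absolute log2 difference among called genes without overlap, the 10 highest and 10 lowest such genes with a mean of at least 5 scaled counts, and the leading genes with the same sign at ZT16 or a changed difference at ZT8. Some genes that this rule or the lists cover are counted but not reported by name here. Other list members are named to show each list, and Plin2, Ehhadh and Angptl4 were chosen after their values were seen. The alternatives were pseudocounts of 0.1 and 5, a minimum mean of 1, another library scaling, the deposited values, an exon-length correction, a fit on the compared groups alone, a replicate block and leaving out each library.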

Additional observations from a re-analysis of the deposited data

Results flagged for a closer look

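In 11 of 202 groups of 4 tested, 1 liver stood apart from the other three, judged by its gap to the nearest liver over the range of the group against Dixon's 95% critical value. Chance alone flags about 1 in 20 such groups. In DRF these were Npas2 (0.8649, a low replicate 3), Cyp2a5 (0.9429, a low replicate 4), Noct (0.8623, a low replicate 2), Loxl4 (0.9325, a low replicate 1), Ndrg1 (0.8451, a high replicate 4), Depp1 (0.8885, a high replicate 2), Ddhd1 (0.8314) and the index of exon length (0.8942, a high replicate 4). In NRF these were Per3 (0.8312, a low replicate 3), Tsku (0.8315, a high replicate 1) and the sum of stellate cell markers (0.9197, a high replicate 2).

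The difference between the regimens at ZT4 was unlike that at ZT16 in 5490 genes by the limma interaction. The change in the log2 difference, ZT4 minus ZT16, was positive for Per2 (6.77), Alas1 (5.87), Cyp7a1 (3.89), Srebf1 (3.41), Dbp (2.99), Fasn (2.82), Hspa5 (2.74), Per1 (2.58) and Cpt1a (0.91). It was negative for Pdk4 (-1.25), Pck1 (-2.09), Hmgcs1 (-2.17), Arntl (-2.42), Irs2 (-3.54), Npas2 (-3.63), Nr1d1 (-4.75) and Igfbp1 (-5.02).

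Against ZT8 the difference changed in 2100 genes. The change in the log2 difference, ZT4 minus ZT8, was 5.05 for Dbp, 3.97 for Usp2, 3.58 for Per3, -4.14 for Igfbp1, -4.90 for Arntl and -5.38 for mt-Co3, whose values among livers of a group are described above.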

How the results depend on the processing

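The number of genes called at ZT4, 5156, was between 3769 (only the compared groups fitted) and 5348 (exon-length trend removed) under the alternatives to the processing, with 3354 and 4318 genes shared with the 5156, and between 4237 and 5146 with a library left out. The share of calls higher in DRF was 43.3% with the exon-length trend removed and 51.8% to 55.2% with a library left out. Genes with the same sign at ZT4 and ZT16 numbered 131, but 45 on the deposited values, 71 with only the compared groups fitted and 69 to 257 with a library left out. Called circular RNAs numbered 2, but 0 with only the 8 livers and 0 to 4 with a library left out. The change to ZT16 passed in 5057 to 5505 genes and that to ZT8 in 1710 to 2326 with a library left out. Of 1422 values of named genes under the alternatives 1372 stayed on the same side of the threshold, 45 lost and 5 gained a call, and 0 changed sign. Of 608 list counts 54 moved by over 1.5 times. The cause of these changes was not tested. With the replicate number as a block, 5233 genes were called, 5083 of them among the 5156, 146 genes had the same sign at both times and 2 circular RNAs were called. The numbers do not pair the animals, and 0 of the 4 DRF livers correlated best with the NRF liver of its own number. The reads behind each value cannot be recovered, strand use in counting is not given, and differences of near-identical copies are uncertain.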
